A study of Mus musculus with 63 samples.

Results

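The factors described here are 9 transcription factors that are used to recognise projection neurons of the cerebral cortex, namely Neurod1, Neurod6, Emx1, Tbr1, Cux1, Cux2, Mef2c, Bhlhe22 and Rorb. They were taken by symbol from the 20183 genes of the table, and all 9 were found in it. Their levels are given as FPKM, fragments per kilobase of exon and per 1000000 reads, in single somas drawn by pipette from the primary visual cortex (V1), layer 2/3, of wild-type C57BL/6 mice of 70 days. The mice were lightly anaesthetised and shown a drifting grating, and the neurons had been loaded with the calcium dye Cal-520. A light-sensitive (LS) cell had answered nearly every stimulus and a non-light-sensitive (NS) cell almost none. Of 63 cells deposited, 46 LS and 17 NS, the quality filters of the study as rebuilt here kept 35 LS and 12 NS cells, and the values below are for these 47 unless stated. The labels name no mouse for a cell, so the LS cells are 1 sample and the NS cells are 1 sample. No test between the groups was made, each SD is the spread of cells, and each interval covers counting error only, since reads copied by PCR without molecular identifiers are not independent molecules.

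Projection neurons are the glutamate-releasing pyramidal cells of the cortex, and interneurons are its GABA-releasing cells. Projection neurons arise from progenitors of the dorsal telencephalon that carry the homeodomain factor Emx1. Factors with a basic helix-loop-helix domain of the NeuroD family, and later the T-box factor Tbr1, act while the newborn cell differentiates. Cux1 and Cux2, homeodomain factors with Cut repeats, are known as markers of the upper layers, and the nuclear receptor Rorb is known as a marker of layer 4. Mef2c is a MADS-box factor that depends on neuronal activity, and Bhlhe22 is a helix-loop-helix repressor with a part in the identity of cortical areas.

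On the GRCm38 build the genes lie on several chromosomes, with positions from GENCODE M21. Neurod1 was at chr2:79452521-79456751 on the minus strand and Tbr1 at chr2:61802930-61814114 on the plus strand. Neurod6 was at chr6:55677822-55681263 on the minus strand and Emx1 at chr6:85187438-85204462 on the plus strand. Cux1 was at chr5:136248135-136567490 and Cux2 at chr5:121856366-122050102, both on the minus strand. Mef2c was at chr13:83504034-83667080 on the plus strand, Bhlhe22 at chr3:18054174-18057517 on the plus strand and Rorb at chr19:18930605-19111196 on the minus strand. The exons of 7 of the 9 factors overlapped no other gene. Those of Neurod1 shared 201 bases with Cerkl on the same strand and 154 bases with Gm26755 on the other, and those of Cux1 shared 394 bases with the antisense gene Gm16599. Reads from the stretches on opposite strands cannot be assigned to one gene in libraries that do not keep the strand. For the stretch shared with Cerkl, keeping the strand would not part the genes. Between a factor and its nearest relatives, the longest run of bases shared exactly by any of their transcripts was 31 bases, for Rorb and Rora, and it was 23 bases for Cux1 and Cux2 and 17 bases for Neurod1 and Neurod6.

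The promoters of 3 factors are shown, 1 for each pattern of the values below. Neurod6 was read in LS cells and in no NS cell, Mef2c had the highest level of the 9 in LS cells, and Rorb had its higher mean in NS cells. RefSeq promoters on GRCm38.p6 matched 8 of the 9 symbols, and Bhlhe22 is the one without an entry. Each window holds the 250 bases before a transcription start and overlaps no exon of GENCODE M21. It is written 5′ to 3′ in the direction of the gene, and capitals mark the E-box CANNTG, the 6 bases that helix-loop-helix factors such as Neurod1, Neurod6 and Bhlhe22 bind, which reads the same on both strands.
Neurod6, chr6:55681264-55681513, minus strand: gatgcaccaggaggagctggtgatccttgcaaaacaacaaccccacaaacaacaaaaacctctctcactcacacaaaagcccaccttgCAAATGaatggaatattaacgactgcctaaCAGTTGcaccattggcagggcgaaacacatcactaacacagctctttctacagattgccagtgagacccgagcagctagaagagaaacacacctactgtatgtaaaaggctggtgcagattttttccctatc
Mef2c, chr13:83503784-83504033, plus strand: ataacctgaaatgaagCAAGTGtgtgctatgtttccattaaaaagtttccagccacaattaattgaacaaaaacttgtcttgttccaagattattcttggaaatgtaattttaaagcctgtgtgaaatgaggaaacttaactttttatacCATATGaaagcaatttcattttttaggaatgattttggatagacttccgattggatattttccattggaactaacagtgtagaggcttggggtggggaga
Rorb, chr19:19111197-19111446, minus strand: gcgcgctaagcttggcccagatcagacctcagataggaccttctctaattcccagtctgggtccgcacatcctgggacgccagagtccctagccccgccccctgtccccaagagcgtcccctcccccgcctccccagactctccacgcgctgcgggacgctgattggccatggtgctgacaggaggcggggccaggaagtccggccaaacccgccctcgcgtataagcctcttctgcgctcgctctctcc
The Neurod6 window held 2 E-boxes, the window of this Mef2c start 2 and the window of this Rorb start 0. The counts depend on the start. The window of another Rorb start, chr19:19001118-19001367, held 2, and those of other Mef2c starts held 0 and 1. An E-box was found in 66.2% of 32851 promoter windows of this length, so its presence in a window is common. The share of G and C was 46% in the Neurod6 window, 33.6% in this Mef2c window and 66% in this Rorb window. In the windows of the other starts it was 39.2% for Rorb and 44.8% and 49.6% for Mef2c.

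Depth and background differed between the groups. The LS cells held 366559 to 2509574 reads with a median of 872255, and the NS cells held 149327 to 885729 with a median of 316966. Genes of odorant, vomeronasal and taste receptors, which cortical neurons are not known to use, served as a measure of background reads, and the mean FPKM over 1042 of them had a median of 0.278 over the LS cells and of 4.21 over the NS cells. Cells were also parted by transmitter markers. A cell was called glutamate-marked where Slc17a7 (a vesicular glutamate transporter) and Neurod2 together had more FPKM than Gad1 and Gad2 (the enzymes that make GABA), and GABA-marked where the reverse held. The LS cells comprised 30 glutamate-marked, 4 GABA-marked and 1 without these markers. The NS cells comprised 2 glutamate-marked, 6 GABA-marked and 4 without. Since only 2 NS cells were glutamate-marked, the light response and the class cannot be told apart in what follows. The summed FPKM of 6 genes found in all neurons (Snap25, Syt1, Rbfox3, Map2, Tubb3 and Stmn2) ranged from 0 to 1344 with a median of 724 in LS cells and from 0 to 1182 with a median of 10.7 in NS cells. Markers of glia were read in both groups. The summed FPKM of 6 astrocyte markers had a median of 65.0 in LS and 50.9 in NS cells, that of 6 oligodendrocyte markers 11.2 and 56.1, and that of 4 microglia markers 83.2 and 12.4, with ranges that overlapped in each case. Olig1 was read in 0 LS cells and Olig2 in 0 NS cells, and markers of endothelium and blood had a median of 0 in both groups. Blood markers were read in 16 LS and 4 NS cells, with summed FPKM of up to 49807 in LS and 53.8 in NS cells. Endothelium markers reached 540 FPKM in LS and 22.9 in NS cells. The part of depth, background reads, glial, endothelial and blood RNA and neuronal marker level in the differences below was not tested.

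**Figure D1:**
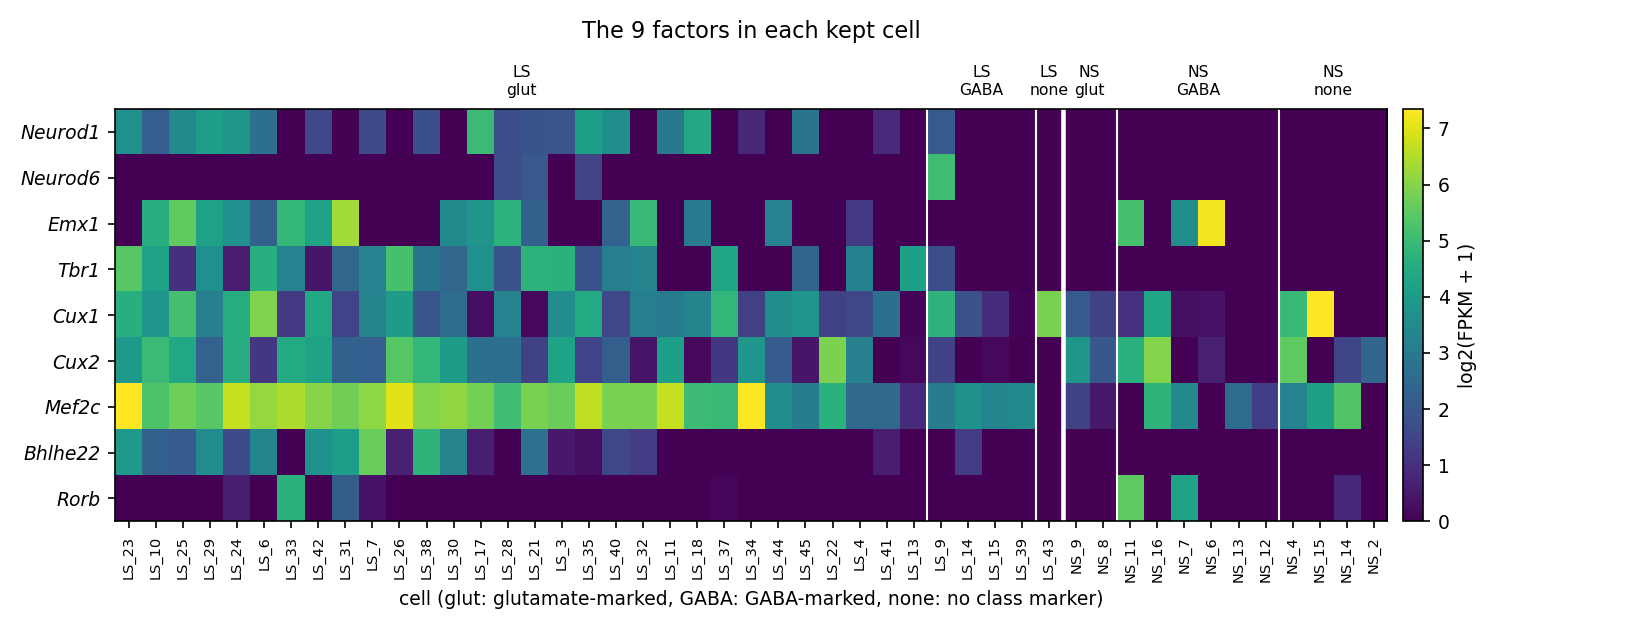
Level of the 9 factors (rows) in each of the 47 kept cells (columns) as log2(FPKM + 1), with cells grouped by light response and transmitter markers and sorted within a group by their summed level. The Mef2c row is bright across the 30 glutamate-marked LS cells, and the rows of Neurod1, Neurod6, Tbr1 and Bhlhe22 are at 0 in all 12 NS cells.

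Of the 9 factors, 8 were detected in a larger share of LS than of NS cells, detected meaning an FPKM above 0. Of the 19515 genes with a read in any kept cell, 71.2% were detected in a larger share of LS cells, so most of that count is shared by genes in general. Neurod1, Tbr1 and Bhlhe22 were each read in at least 50% of LS cells and in none of the 12 NS cells, a pattern that 0.943% of those genes showed. Neurod6 also had no read in an NS cell. For a factor read in 0 of 12 cells the exact 95% binomial interval reaches 26.5% of cells. The median factor was detected in 60% of LS and 25% of NS cells, and the median of all genes with a read was 25.7% and 16.7%.

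**Figure D2:**
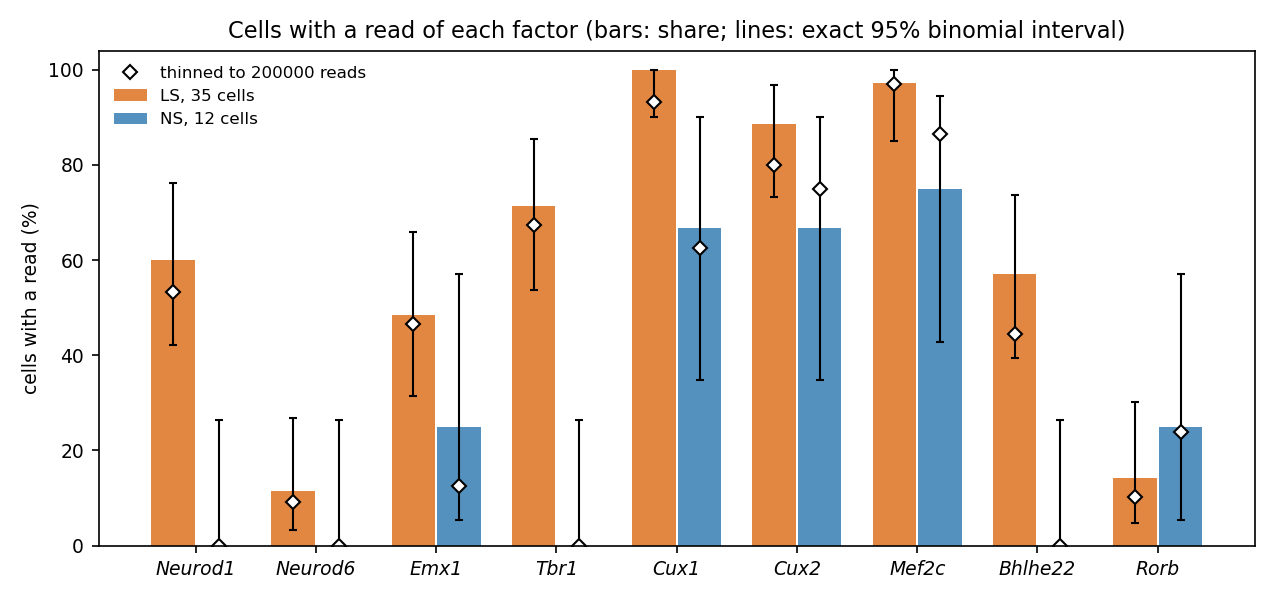
Percentage of the 35 LS and 12 NS cells with a read of each factor, with bars for the share and lines for the exact 95% binomial interval. Diamonds mark the share expected after thinning to 200000 reads, over the 35 LS and 8 NS cells that held at least that many. The NS bars of Neurod1, Neurod6, Tbr1 and Bhlhe22 are at 0, and only Rorb has the taller NS bar.

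Tbr1, the T-box factor of early projection neurons, had the widest gap in detection. In the LS cells its level ranged from 0 to 42.4 FPKM with a median of 4.33, its mean was 8.59 ± 10.9 (SD, n = 35), and 25 cells held a read (71.4%, interval 53.7% to 85.4%). The NS cells held 0 reads of Tbr1. The 25 LS cells with a read therefore all lay above every NS cell, while the 10 LS cells at 0 could not be told from them. Thinned to 200000 reads, the share of LS cells with a Tbr1 read was expected at 67.5%. Cells without a Tbr1 read cannot gain one by thinning, so this lowers the LS share only. For a fold, the 0 reads of the pooled NS cells were set to a floor of 3, below the exact upper limit of 3.69 for 0 reads. Per total reads, the pooled LS reads of Tbr1 were 83.3-fold above that floor.

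Neurod1 and Bhlhe22, both helix-loop-helix factors, showed the same division. Neurod1 ranged from 0 to 31.04 FPKM in LS cells with a median of 2.24 and a mean of 4.96 ± 7.30 (SD, n = 35), and 21 cells held a read. Bhlhe22 ranged from 0 to 49.9 FPKM with a median of 0.505 and a mean of 4.87 ± 9.91 (SD, n = 35), and 20 cells held a read. Both were low in most LS cells and far higher in a few, so the SD exceeded the mean. The cell with the most Bhlhe22, LS_7, held 29.2% of its summed level. Per total reads and against the floor of 3 reads in the pooled NS cells, pooled LS reads of Neurod1 were 23.6-fold and those of Bhlhe22 27.9-fold higher. At 200000 reads the expected shares of LS cells with a read were 53.4% and 44.5%.

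Neurod6, a NeuroD factor known from mature pyramidal cells, was rare. Only 4 of 35 LS cells held a read (11.4%, interval 3.20% to 26.7%). The values were 32.7 FPKM in LS_9, 3.18 in LS_21, 2.30 in LS_28 and 1.85 in LS_35, and LS_28 held 3 reads. All 4 of these cells also held Neurod1 and Tbr1. Its mean over the 47 cells was below 1 FPKM, the minimum set for a comparison of means, so it was not counted there. Per total reads, its reads pooled over LS cells were 2.07-fold above the floor of 3 reads in the pooled NS cells. With so few reads, its absence from the NS cells says little at this depth.

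Mef2c had the highest level of the 9 factors in LS cells, by mean and by median, and it was the highest in 27 of the 35 single LS cells. It ranged from 0 to 161 FPKM in LS cells with a median of 51.3 and a mean of 52.1 ± 42.7 (SD, n = 35), and 34 cells held a read. In the NS cells it ranged from 0 to 39.4 FPKM with a median of 3.34 and a mean of 9.18 ± 12.6 (SD, n = 12), and 9 cells held a read. The ranges of the groups overlapped, but the median LS cell lay above the highest NS cell. The log2 ratio of means was 2.51, and it stayed between 2.38 and 3.02 when any one cell was left out. Among the NS cells, 5 of 12 had Mef2c above the mean of their own receptor genes, against 34 of 35 LS cells. In the 3 NS cells with receptor genes under 1 FPKM, Mef2c was 39.4 FPKM in NS_14, 26.4 in NS_16 and 5.02 in NS_13, and against the LS cells chosen likewise the log2 ratio was 1.19.

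Emx1, the homeodomain factor of dorsal progenitors, was read in 17 of 35 LS cells (48.6%) and 3 of 12 NS cells (25%). Its mean was 9.49 ± 16.5 FPKM in LS cells (SD, n = 35) and 16.1 ± 42.5 in NS cells (SD, n = 12). The NS mean came from NS_6 with 147 FPKM, NS_11 with 35.6 and NS_7 with 11.2. These 3 cells were GABA-marked, and their receptor genes averaged 10.2 to 11.02 FPKM. NS_6 held 75.8% of the summed NS level on 57 reads. The log2 ratio of means, LS over NS, was −0.77 with NS_6 and 1.16 without it, so its direction rests on that cell.

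Cux1 and Cux2, the upper-layer factors, were the most widely detected beside Mef2c. Cux1 was read in all 35 LS cells (interval from 90%) and in 8 of 12 NS cells (66.7%, interval 34.9% to 90.1%). Its level in LS cells was 0.049 to 59.9 FPKM with a median of 8.16 and a mean of 12.4 ± 14.7 (SD, n = 35). In NS cells it was 0 to 159 FPKM with a median of 0.664 and a mean of 18 ± 45.6 (SD, n = 12). Mean and median thus gave opposite orders, because NS_15 alone held 73.8% of the NS level, on 747 reads in a cell whose receptor genes averaged 20.99 FPKM. The log2 ratio of means was −0.53 with that cell and 1.27 without it, and that of the medians was 3.62.

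Cux2 was read in 31 of 35 LS cells (88.6%) and 8 of 12 NS cells (66.7%). It ranged from 0 to 58.8 FPKM in LS cells with a median of 3.86 and a mean of 10.5 ± 13.6 (SD, n = 35). In NS cells it ranged from 0 to 62.4 FPKM with a median of 2.44 and a mean of 12.96 ± 20.8 (SD, n = 12). The ranges overlapped nearly in full, and the log2 ratio of means of −0.31 turned to 0.31 without NS_16. At 200000 reads the expected shares of cells with Cux2 were 80.0% in LS and 74.9% in NS cells, and no difference could be read from them. The NS share covers only the 8 NS cells with at least 200000 reads, so it is not comparable with the 66.7% of all 12. The NS cells with the most Cux2 were NS_16 with 62.4 FPKM, NS_4 with 45.2, NS_11 with 24.3 and NS_9 with 13.9. These cells fell in different marker classes, GABA-marked for NS_16 and NS_11, glutamate-marked for NS_9 and unmarked for NS_4.

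Rorb, the layer 4 factor, was the rarest beside Neurod6. It was read in 5 of 35 LS cells (14.3%, interval 4.81% to 30.3%) and 3 of 12 NS cells (25%, interval 5.49% to 57.2%). In LS cells it was 25.3 FPKM in LS_33, 3.51 in LS_31, 0.534 in LS_24, 0.276 in LS_7 and 0.089 in LS_37. In NS cells it was 44.6 FPKM in NS_11, 17.7 in NS_7 and 0.795 in NS_14. A single cell therefore held most of the level in each group, 85.1% in LS and 70.7% in NS. The log2 ratio of means was −2.63, and it shrank to −0.99 without NS_11 and grew to −5.34 without LS_33. In the cells with receptor genes under 1 FPKM, which leave out NS_11 and NS_7, the ratio turned to 1.85.

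**Figure D3:**
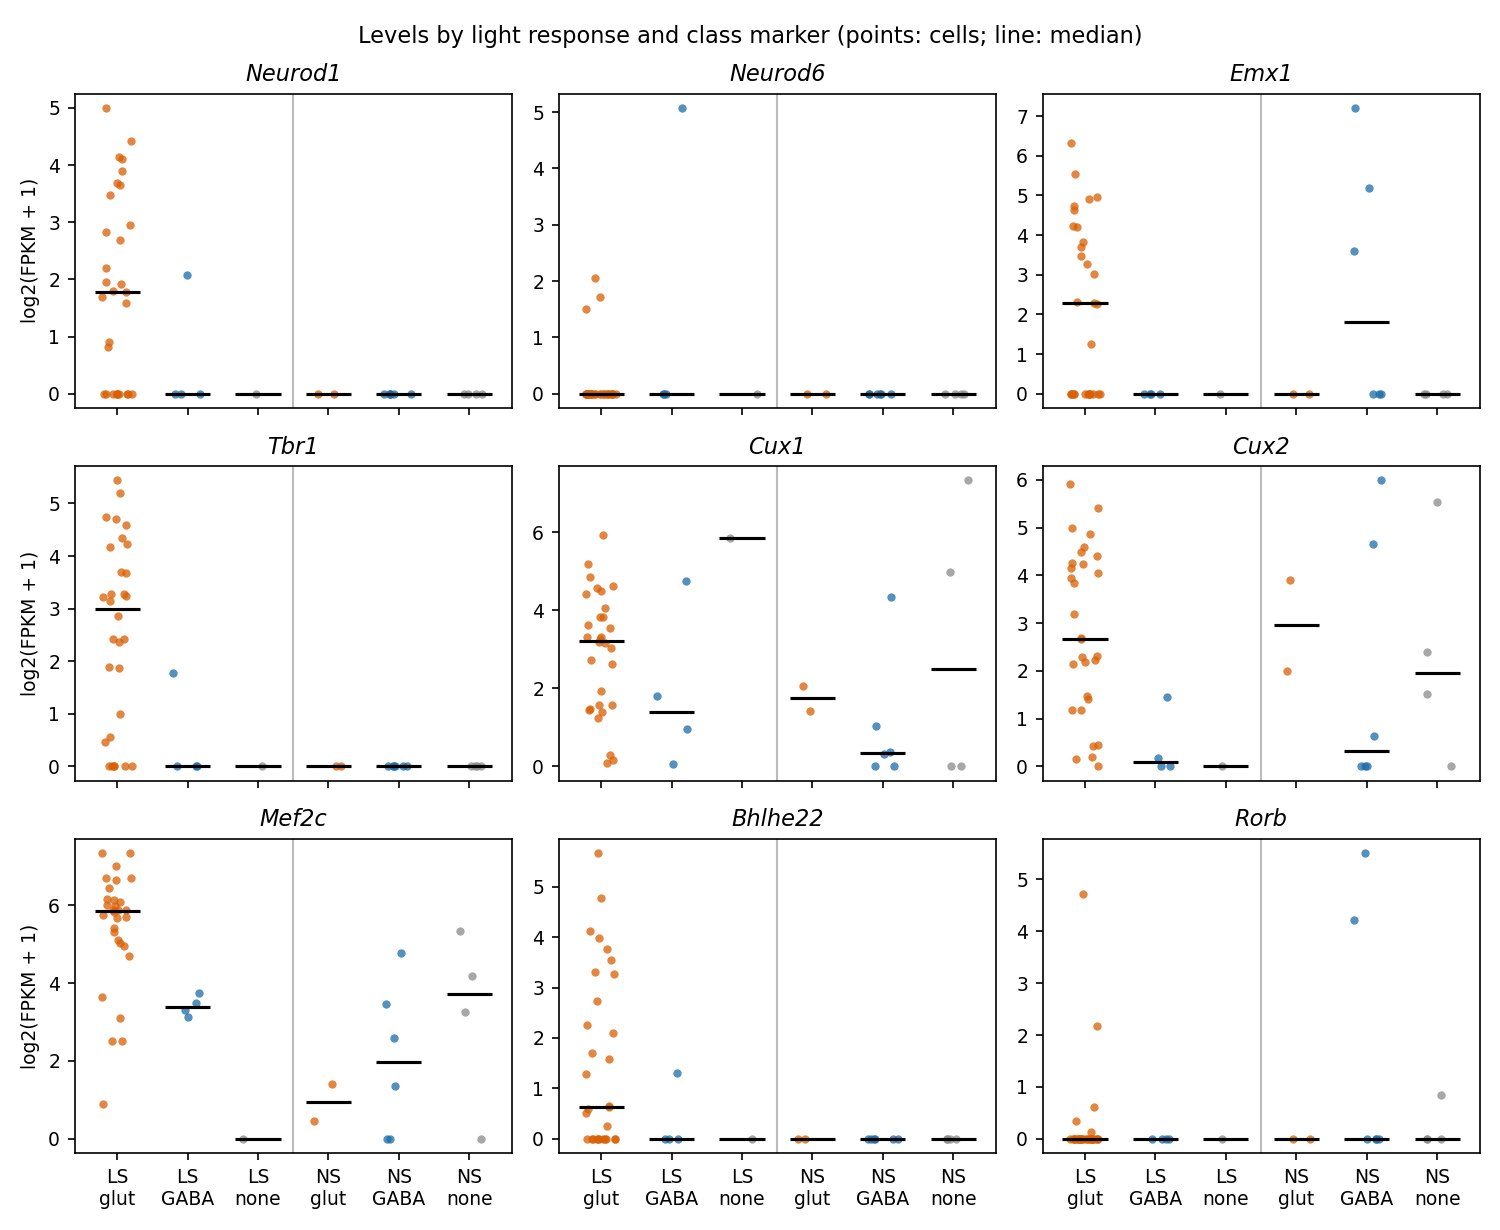
Level of each factor as log2(FPKM + 1) in single cells (points), by light response and marker class, with a line at the median of each group. The glutamate-marked LS cells hold most of the points above 0 for Neurod1, Tbr1 and Bhlhe22, and single high cells stand out for Neurod6 in LS, Emx1 and Cux1 in NS, and Rorb in both.

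By mean FPKM, 8 of the 9 factors reached the minimum for a comparison, a mean of at least 1 FPKM over the 47 cells. Neurod1, Tbr1, Mef2c and Bhlhe22 were at least 2-fold higher in LS cells and Rorb was at least 2-fold higher in NS cells. Over the 15672 genes that reached that minimum, 34.4% were at least 2-fold higher in LS cells and 36.8% in NS cells, so a 2-fold difference of means was common here in both directions. Ordered by mean level in LS cells, Mef2c came first with 52.1 FPKM, followed by Cux1, Cux2, Emx1, Tbr1, Neurod1, Bhlhe22, Neurod6 and Rorb with 0.848. Apart from Mef2c, neighbours in that order differed by less than the SD of either. In NS cells the order by mean was Cux1, Emx1, Cux2, Mef2c and Rorb, with the other 4 at 0, and each neighbouring pair above 0 differed by less than its SD.

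**Figure D4:**
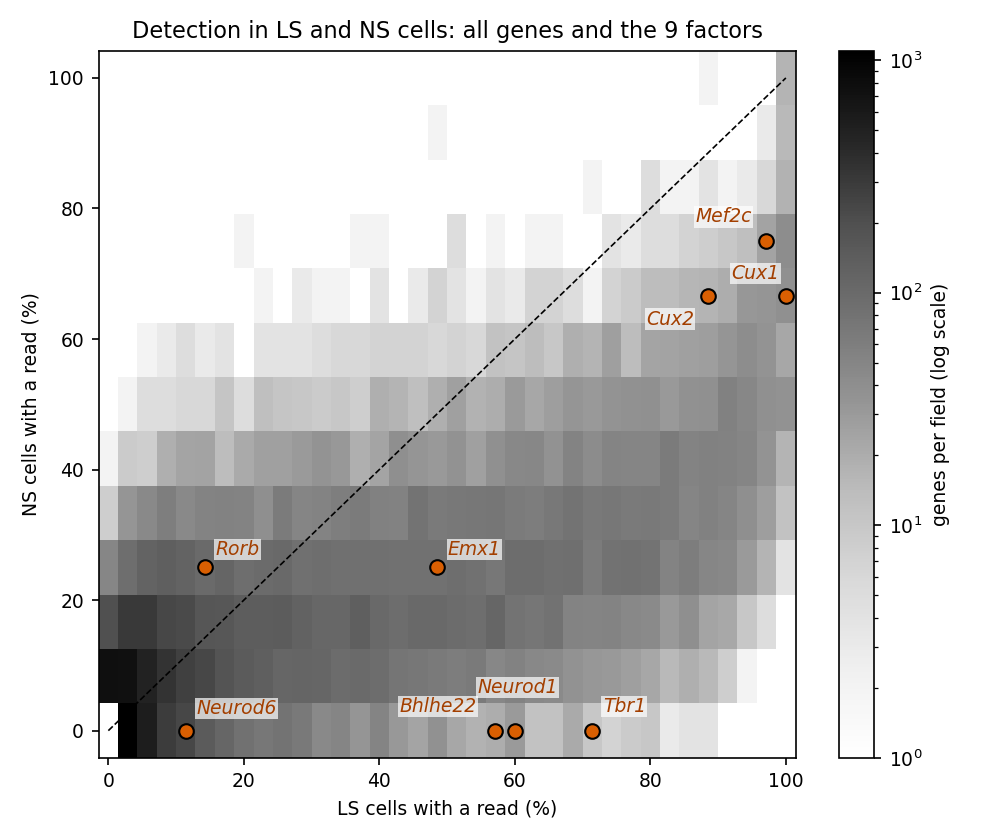
Percentage of LS cells (horizontal axis) and NS cells (vertical axis) with a read, for the 19515 genes with a read in any kept cell (grey, darker for more genes) and the 9 factors (orange), with a dashed line of equal shares. Of the factors, Rorb alone lies above the line, and Tbr1, Neurod1 and Bhlhe22 lie on the lower edge at 57.1% to 71.4% of LS cells, where few genes are found.

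Within the LS cells the factors were set against the transmitter markers. The 30 glutamate-marked cells all held Slc17a7, which the class rule uses together with Neurod2 but does not by itself require. Of markers that the class did not use, Nrgn was read in all 30, and the GABA transporter gene Slc32a1 was read in 3. Of the 4 GABA-marked cells 3 held Vip and 2 held Slc32a1, while Camk2a was read in all 4 at 28.7 to 594 FPKM. Neurod1, Emx1, Tbr1, Cux2, Mef2c and Bhlhe22 were at least 2-fold higher by mean in glutamate-marked cells, Neurod6 was at least 2-fold higher in GABA-marked cells, and Cux1 did not reach either limit. Rorb did not reach the minimum mean. Other markers moved with the classes. The summed FPKM of the pan-neuronal genes had a median of 763 in glutamate-marked and 268 in GABA-marked LS cells. The corresponding medians were 53.0 and 215 for astrocyte, 9.95 and 46.6 for oligodendrocyte and 66.8 and 333 for microglia markers, with overlapping ranges, and their part in the class comparison was not tested. Over 13520 genes with a mean of at least 1 FPKM in these 34 cells, 47.8% were at least 2-fold higher in glutamate-marked and 19.8% in GABA-marked cells. By detection, 6 of the 9 factors were read in a larger share of glutamate-marked cells, against 64.8% of 18485 genes.

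Mef2c separated these classes in level but not in detection. It was read in all 30 glutamate-marked cells at 0.875 to 161 FPKM with a median of 56.4, and in all 4 GABA-marked cells, at 12.4 FPKM in LS_14, 10.2 in LS_39, 8.89 in LS_15 and 7.71 in LS_9. The mean was 59.5 ± 41.7 in the former (SD, n = 30) and 9.81 ± 2.003 in the latter (SD, n = 4). The GABA-marked cells lay close together near the lower end of the wide glutamate-marked range. The log2 ratio of means was 2.60 and lay between 2.501 and 2.73 with any one cell left out.

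Emx1 was read in 17 of 30 glutamate-marked LS cells, at up to 78.6 FPKM, and in 0 of the 4 GABA-marked ones. Per total reads, its pooled reads in glutamate-marked LS cells were 35.95-fold above the floor of 3 reads in the pooled GABA-marked LS cells. The NS cells went the other way, with Emx1 read in 0 of 2 glutamate-marked and 3 of 6 GABA-marked cells. With LS and NS cells together, its mean was 10.4 ± 17.1 FPKM in glutamate-marked cells (SD, n = 32). In GABA-marked cells it was 19.4 ± 46.2 (SD, n = 10), with 75.8% of the sum in NS_6. Tbr1 was read in 24 of 30 glutamate-marked LS cells, Neurod1 in 20 and Bhlhe22 in 19, and each was read in 1 of the 4 GABA-marked LS cells. That cell was LS_9 for Tbr1 with 2.41 FPKM and for Neurod1 with 3.23, and LS_14 for Bhlhe22 with 1.47. With 4 cells, a share of 0 has an exact interval up to 60.2%.

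LS_9 stood apart from the other 3 GABA-marked LS cells. It held reads of 6 of the 9 factors, the others 2 or 3. Its Neurod6 level of 32.7 FPKM was the highest of the 47 cells, and its Cux1 level was 25.6 FPKM. Its receptor genes averaged 3.33 FPKM, the highest of the kept LS cells, and 11.5% of them were detected. Neurod1, Tbr1 and Cux2 lay below that mean in LS_9, while Neurod6, Cux1 and Mef2c lay above it. Without LS_9, Neurod6 was at 0 in the GABA-marked cells and Cux1 rose from a log2 ratio of 0.68 to 3.32. The part of background or of a further cell in LS_9 was not tested.

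Cux1 and Cux2 differed in the GABA-marked LS cells. Cux2 had a mean of 12.1 ± 13.97 FPKM in glutamate-marked cells (SD, n = 30) and 0.467 ± 0.856 in GABA-marked cells (SD, n = 4), a log2 ratio of 4.70. Cux1 had means of 11.6 ± 12.9 and 7.28 ± 12.3 and a log2 ratio of 0.68. LS_9 held 87.98% of the Cux1 sum of the GABA-marked cells, whose mean was 1.17 FPKM without it. In each of the 4 GABA-marked cells Cux1 was above Cux2, although LS_39 held only 1 Cux1 read and 0 of Cux2, and of the 30 glutamate-marked cells 14 had more Cux1 and 16 more Cux2. LS_43, the LS cell without class markers, held 56.8 FPKM of Cux1 and no other factor. When the NS cells were added to each class, the log2 ratio of Cux2 fell to 0.42.

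The 2 glutamate-marked NS cells, NS_8 and NS_9, each held 3 factors. Cux1 was 1.67 FPKM in NS_8 and 3.20 in NS_9, Cux2 was 3.01 and 13.9, and Mef2c was 0.387 and 1.65. Only the 13.9 FPKM of Cux2 in NS_9 exceeded the mean of the cell's own receptor genes, which was 11.7 FPKM in NS_8 and 5.11 in NS_9. Their class rested mainly on Neurod2, since Slc17a7 was listed at 0 in one of them and at 1.36 FPKM in the other. Snap25 and Syt1, which all neurons use in transmitter release, were listed at 0 in both, as were Tubb3 and Stmn2. Of the other pan-neuronal genes, Rbfox3 was read in both, at 9.28 and 16.7 FPKM, and Map2 in 1 of them at 0.486 FPKM. The 6 GABA-marked NS cells held 1 to 4 factors. NS_12, with 885729 reads the deepest NS cell, held only Mef2c, at 1.58 FPKM, and NS_13 held only Mef2c, at 5.02 FPKM.

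Counted together, a median of 6 of the 9 factors was read in an LS cell, from 1 to 8, and a median of 3 in an NS cell, from 1 to 4. At least 5 factors were read in 25 of 35 LS cells and in 0 of 12 NS cells. Genes in general were also fewer per NS cell. The number above 1 FPKM had a median of 5890 in LS cells (1640 to 9980) and 3061.5 in NS cells (1884 to 7211). The part of this in the factor counts was not tested. No kept cell lacked all 9. Glutamate-marked LS cells held 3 to 8 factors with a median of 6. The glutamate-marked cell with the most reads, 2509574, held 4 factors, and the cell with the fewest, 366559, also held 4.

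**Figure D5:**
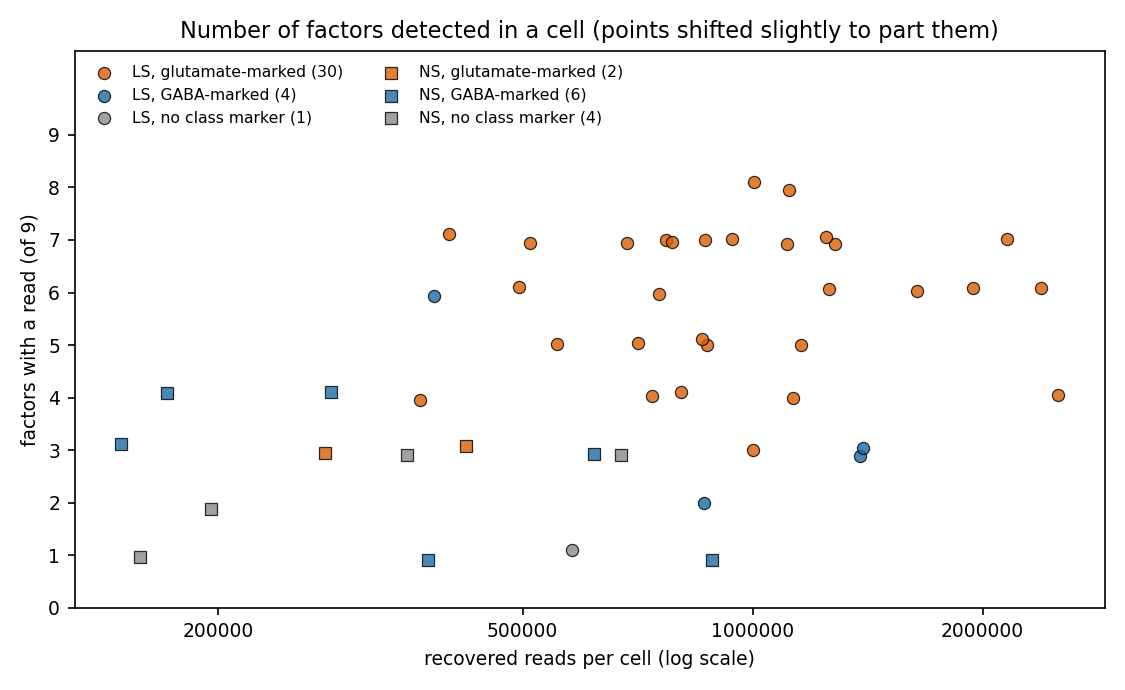
Number of the 9 factors with a read (vertical axis) against recovered reads per cell on a log scale (horizontal axis), for LS cells (circles) and NS cells (squares) coloured by marker class. The NS cells hold at most 4 factors, and LS cells of similar depth range from 1 to 7.

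The layer markers were combined cell by cell. Cux1 or Cux2 was read in all 35 LS cells, and 30 of these held no Rorb. Rorb was never read without Cux1 or Cux2 in either group, and it exceeded both in 1 LS cell, LS_33, and in 2 NS cells, NS_11 and NS_7. The 5 LS cells with Rorb all held Tbr1 as well, and 20 of 35 LS cells held Tbr1 without Rorb. Emx1 and Tbr1 were read together in 15 LS cells and at least one of them in 27. In the NS cells Cux1 or Cux2 was read in 10 of 12, and 7 of these 12 held Cux1 or Cux2 without Rorb.

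Among the 30 glutamate-marked LS cells the levels of the factors went together weakly. On log2(FPKM + 1), the highest Pearson r between any pair was 0.49 for Cux2 and Mef2c, followed by 0.37 for Emx1 and Rorb and 0.37 for Mef2c and Bhlhe22. The r of Cux1 and Cux2 was 0.05 and that of Emx1 and Tbr1 was −0.09. The cells share an unknown set of mice, and many values are 0, so these are descriptions of 30 cells. The genes most like 4 widely detected factors over the 35 LS cells were sought among 6122 genes read in at least 50% of them. For Mef2c they included Pcsk2 (r = 0.87) and Fam131a (0.86), where the median gene had 0.14 and the 99th percentile was 0.75. For Tbr1 they were Lrrc7 (0.68), Opcml (0.63) and Slc17a7 (0.62), with a 99th percentile of 0.47. For Cux2 they were Syt16 (0.69), Celsr2 (0.68) and Ryr2 (0.67), with a 99th percentile of 0.55. For Cux1 they were Med13l (0.63), Ubap2l (0.61) and Arid1a (0.55), with a 99th percentile of 0.41. GABA-marked cells and those with many receptor reads are among these 35 cells.

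Other genes of the same programmes were counted in the same way. Of 24 other projection neuron factors, 22 reached the minimum mean, 8 were at least 2-fold higher in LS and 4 in NS cells. Emx2, Nfia and Zbtb20 were among those higher in NS cells. The most abundant were Nr4a1, an immediate-early nuclear receptor, with a mean of 605 ± 865 FPKM in LS and 102 ± 341 in NS cells, and Id2, an inhibitor of helix-loop-helix factors, with 192 ± 114 and 172 ± 261 (SD, n = 35 and 12). Of 14 deep-layer factors 10 were compared, 6 were higher in LS and 2, Tle4 and Otx1, in NS cells. Bcl11b and Lmo3, among the 6, were each read in only 3 of the 35 LS cells. They were read in 3 and 2 of the 12 NS cells, a larger share. By detection, 9 of the 14 were read in a larger share of LS and 5 of NS cells. Nr4a2 led this list in LS cells with 23.8 ± 45.6 FPKM against 0.185 ± 0.460 in NS cells, and Ldb2 followed with 23.7 ± 51.7 against 1.49 ± 3.28 (SD, n = 35 and 12).

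Of 18 interneuron factors 13 were compared, and 8 of them were at least 2-fold higher in NS cells while 2, Npas1 and Nr2f2, were higher in LS cells. The most abundant in LS cells was Etv5, with 6.43 ± 11.6 FPKM against 5.68 ± 9.80 in NS cells (SD, n = 35 and 12). Of 15 paralogs of the factors 13 were in the table and 8 were compared. Neurod2 and Mef2d were at least 2-fold higher by mean in LS cells, and Neurog1, Emx2, Tbx21 and Satb1 in NS cells. Neurog1, with 12.7 ± 43.9 FPKM, and Tbx21, with 8.95 ± 31.01, were each read in only 1 of the 12 NS cells, and without that cell their NS level is 0, below LS means of 0.147 and 0.699. Emx2 was read in 2 and Satb1 in 7 of the 12 NS cells. Mef2a, the most abundant paralog, had 11.9 ± 14.6 FPKM in LS and 9.14 ± 23.8 in NS cells, and Mef2d had 9.64 ± 12.3 and 4.67 ± 11.4 (SD, n = 35 and 12). Of 12 layer 2/3 genes that are no transcription factors, 10 were at least 2-fold higher in LS cells and 0 in NS cells. The highest were Lamp5, a membrane protein, with 119 ± 141 FPKM in LS and 15.9 ± 33.7 in NS cells, and Nptx2, a secreted pentraxin, with 101 ± 260 and 7.06 ± 17.1 (SD, n = 35 and 12). The shares of all genes past this limit, given above, were similar in both directions.

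Within the LS cells these lists were also set against the marker classes. Of 8 interneuron factors compared, Dlx1, Npas1, Lhx6, Nr2f2 and Maf were at least 2-fold higher in GABA-marked cells and Etv5 and Lhx8 in glutamate-marked cells. Dlx1, a homeodomain factor of interneurons, had a mean of 45.1 FPKM in the 4 GABA-marked cells and 0.641 in the 30 glutamate-marked ones, and Npas1 had 28.4 and 0.886. Lhx6 was read in 1 of the 4 GABA-marked cells and Lhx8 in 1 of the 30 glutamate-marked cells. Of the 12 layer 2/3 genes, 11 were at least 2-fold higher in glutamate-marked cells and Pdzrn3 alone was not, with 16.8 FPKM against 16.99 in GABA-marked cells. Of 22 other projection neuron factors, 12 were at least 2-fold higher in glutamate-marked LS cells. Neurod2 is among these 12, and its place there is set by the class rule, which uses it. The 4 that were at least 2-fold higher in GABA-marked cells were Pou3f3, Nfia, Nfib and Tcf4. Of 10 deep-layer factors 6 were higher in glutamate-marked cells, and Bcl11b, Sox5, Otx1 and Ldb2 were higher in GABA-marked cells. The shares of all genes past the limit were 47.8% toward glutamate-marked and 19.8% toward GABA-marked cells, as above.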

How the data were processed

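Single somas were measured by Smart-seq2, which amplifies full-length cDNA of 1 cell. Per the labels and methods, the authors aligned paired-end reads to GRCm38 with STAR 2.5.3a, counted them with featureCounts and deposited FPKM made with scater. Of the per-cell columns 0 stayed unused, and 4 rows with repeated names were left out. Whole reads were recovered from the FPKM steps for 12195 genes with GENCODE M21 exon lengths and for 6772 with solved lengths (99.54% of values above 0 in these genes; tolerance 0.01 reads).

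Cells were removed by name for low cDNA, for under 1000 genes above 1 FPKM, for a mitochondrial share above 25%, or for marker products above 0. This removed 16 cells, 11 LS and 5 NS, which is more LS cells than the study removed. Gene levels were compared as ratios of mean FPKM with a limit of 2-fold, for genes with a mean of at least 1 FPKM. Detection meant FPKM above 0. Shares have exact binomial intervals. The calculation was tested on simulated data. The members and lists were chosen with earlier results of these data known. Named genes were the 9 members, the 2 highest of each list by LS mean, genes in counts of 5 or fewer, and the 3 genes most correlated with each member read in at least 50% of kept cells. A few genes that this rule selects are not reported here. Alternatives were other cell filters, limits, pseudocounts, pooled reads, thinning, class rules and leaving out each cell. The software was Python 3.11.15 with scipy 1.17.1, numpy 2.4.6, pandas 2.3.3 and matplotlib 3.10.9.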

Additional observations from a re-analysis of the deposited data

Results flagged for a closer look

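In small groups of cells, some values lay far from the rest by Dixon's ratio at the 95% level. The limit is meant to flag about 1 in 20 groups by chance, and 10 of the 16 groups checked had a cell apart. Where every other cell of a group is at 0, however, a single cell with reads is always flagged. This was so for Neurod1, Neurod6 and Tbr1 in LS_9, Bhlhe22 in LS_14 and Rorb in NS_14. The rate of 1 in 20 does not apply to such groups, so the 10 cannot be weighed against it. Among the 4 GABA-marked LS cells, LS_9 was apart for Neurod1 (3.23 FPKM), Neurod6 (32.7 FPKM), Tbr1 (2.41 FPKM), Cux1 (25.6 FPKM) and Cux2 (1.75 FPKM), and LS_14 for Bhlhe22 (1.47 FPKM). Among the 6 GABA-marked NS cells, NS_6 was apart for Emx1 (147 FPKM) and NS_16 for Cux1 (19.4 FPKM). Among the 4 NS cells without class markers, NS_4 was apart for Cux2 (45.2 FPKM) and NS_14 for Rorb (0.795 FPKM).

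The 16 cells removed by the filters also held reads of the factors. More than 3 reads were found in 12 of them for Cux1, 10 for Mef2c, 9 for Cux2, 9 for Rorb, 8 for Emx1, 5 for Tbr1, 5 for Bhlhe22, 1 for Neurod1 and 1 for Neurod6. The highest level was 1584 FPKM of Emx1 in NS_10, on 578 reads, in a cell removed for astrocyte markers. Tbr1 stood at 56.7 FPKM in NS_3, removed for astrocyte markers, and at 5.86 FPKM in NS_17, removed for excitatory and inhibitory markers together. NS_17 also held 64.5 FPKM of Mef2c and 7.37 FPKM of Bhlhe22. Rorb reached 136 FPKM in NS_5, in which the receptor genes averaged 9.81 FPKM.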

How the results depend on the processing

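Of 87 recomputed counts and medians, 73 stayed within 1.5 times the value reported. The number of factors read in no NS cell, 4, was 2 with all 63 cells, where the removed NS_3 and NS_17 hold Tbr1 and NS_17 holds Bhlhe22. The number at least 2-fold higher in NS cells, 1, was 2 with all 63 cells, 2 in cells with at least 3000 genes, 0 in cells with receptor genes under 1 FPKM, 0 in glutamate-marked cells, 0 by medians, 0 by means of log2(FPKM + 1), and 0 to 2 with any one cell left out. It was 0 without NS_11, and 2 without LS_31, for which the log2 ratio of Emx1 was −1.11. The number at least 2-fold higher in GABA-marked LS cells, 1, was 2 with all 63 cells, 2 with LS_1 and NS_1 kept, 0 in cells with receptor genes under 1 FPKM, and 0 to 1 with any one cell left out, 0 being the value without LS_9. Other projection neuron factors higher in NS cells numbered 1 with all 63 cells in place of 4. The log2 ratios of Emx1, Cux1 and Cux2, which stayed within the 2-fold limit as reported, changed sign with the setting, from −3.25 (all 63 cells) to 1.24 (log2(FPKM + 0.1)) for Emx1, from −0.70 (without LS_6) to 3.62 (medians) for Cux1 and from −0.97 (receptor genes under 1 FPKM) to 0.75 (log2(FPKM + 0.1)) for Cux2. The cause of these shifts was not tested.

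Of 294 recomputed values of single factors, 259 moved by less than the spread of cells or stayed inside their interval, 34 moved further, and the Rorb ratio turned to 1.85 in cells with receptor genes under 1 FPKM, of which 3 were NS. No paired analysis was possible because the labels pair no cells and no result comes from a test. Depth limits the factors with few reads, since 4 of 12 NS cells held under 200000 reads, and an NS share of 0 leaves room up to 26.5%.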
